A study of Mus musculus with 6 samples.

Results

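Toll-like receptors and the proteins that serve them were examined in splenic B cells of p80HT transgenic mice and their wild-type (WT) littermates. The list holds 31 genes: 12 receptors, their co-receptors, adaptors and transport factor, the IRAK kinases, and kinases, a ubiquitin ligase and inhibitors that act below or beside them. Of these, 28 were measured, each at a single probeset, among 19938 genes in all. Tlr5, Tlr11 and Irak4 had no probeset with a single gene symbol and are not analysed here. The members were chosen by name, and no filter on low signal was applied to them. RNA came from 1-year-old animals of a mixed C57BL/6J x SJL/J background, 3 p80HT and 3 WT, with 1 Affymetrix Mouse Gene 1.0 ST array per mouse. The p80HT mice carry a human coding sequence for a lymphoma-associated NF-κB2 protein that is cut short at its carboxyl end, driven in T and B lymphocytes by an H-2Kb promoter and an immunoglobulin μ enhancer, and the 3 used here had monoclonal immunoglobulin (M-protein) in serum. Cells were taken from spleen with an antibody to B220, a form of CD45 that plasmacytoid dendritic cells also carry, so the samples are bulk selections. In such samples a change in the share of a cell type and a change in RNA per cell cannot be told apart.

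Toll-like receptors recognise conserved microbial molecules. Those at the cell surface mostly bind lipids and proteins, and those in endosomes bind nucleic acids or, for some mouse receptors, microbial proteins. Most pass the signal through the adaptor MyD88 to IRAK kinases and on to NF-κB, while Tlr3 and internalised Tlr4 use the adaptor TRIF, encoded by Ticam1, and the kinase TBK1. Mouse B cells are known for the nucleic acid receptors Tlr7 and Tlr9 and for the receptor homologue Cd180 with its partner Ly86. Tlr4, Tlr8, Tlr13, Cd14 and Ly96 are also well known from macrophages and other myeloid cells.

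The array of p80HT replicate 3 stands apart, which bears on most results below. Across genes, its correlation with the other 5 arrays was 0.914 to 0.925, while these correlated with each other at 0.981 to 0.995. Of 10 B cell markers, 9 were at least 1.5-fold below the lowest of the other arrays on it (90%, against 4.81% of all genes). Ms4a1, the CD20 gene, was still at 11.77 (log2 signal, as all levels here) against 12.88 to 13.12. The summed signal of the 10 was 15.80 to 15.99 in WT, 15.52 and 15.63 in p80HT replicates 2 and 1, and 14.46 on this array. All 12 salivary and lacrimal gland markers and 12 of 17 macrophage and monocyte markers were at least 1.5-fold above the highest of the others, as were 9.61% of all genes. Values without this array are therefore given beside those with all 6. Nfkb2 of the mouse was at 10.86 ± 0.07 (SD, n = 3) in WT and 10.69 ± 0.16 in p80HT, at a mouse probeset, and whether it also reads the human transgene was not tested.

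Because the transgene encodes a DNA-binding protein of the NF-κB family, whose members bind κB sites, RefSeq promoter windows (build GRCm38.p6, from 250 bases before to 50 after each start) were searched on both strands. The window was available for 21 of the 28 measured members. The κB consensus was written as GGGRNNYYCC, with R for A or G, Y for C or T and N for any base. It lay in 8.46% of 32851 promoters in the table and in those of 3 members, Tlr2, Tlr3 and Irak1. A looser motif, GGG and CC with any 5 bases between them, which every consensus match also meets, lay in 50.8% of all promoters and in those of 13 of the 21 members. A member counts here if any of its windows matches. Counted by window, as for all promoters, 4 of 27 member promoters held the consensus and 15 of 27 the looser motif. The stretches below show only the 30 bases around the first match in a window. They give the consensus for the 3 members and the looser motif for Irak3, the member that changed. Capitals mark that match, with any that overlap it on either strand. Counting both strands, the Tlr2 window holds 5 consensus matches, that of Tlr3 1 and that of Irak1 2. Overlapping matches, and the same bases read on both strands as for Irak1, count separately. The counts are therefore not numbers of distinct sites. The window of the inner Irak3 start holds 5 looser matches, not all of them shown. No sequence here says whether a factor was bound.
Tlr2, chr3:83841761-83841790, minus strand: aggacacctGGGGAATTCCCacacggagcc
Tlr3, chr8:45410572-45410601, minus strand: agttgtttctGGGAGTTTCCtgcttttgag
Irak1, chrX:74023920-74023949, minus strand: agggcggcgcGGGACGCCCCcgtgtggcgg
Irak3, inner start, chr10:120201603-120201632, minus strand: ggtctcgcaGGGCGCATCCCtggggagcgg
Irak3 has 2 annotated starts. The 250 bases before the outer start, chr10:120202131-120202380 on the minus strand, hold neither motif and are shown because they belong to the member that fell.
Irak3, outer start: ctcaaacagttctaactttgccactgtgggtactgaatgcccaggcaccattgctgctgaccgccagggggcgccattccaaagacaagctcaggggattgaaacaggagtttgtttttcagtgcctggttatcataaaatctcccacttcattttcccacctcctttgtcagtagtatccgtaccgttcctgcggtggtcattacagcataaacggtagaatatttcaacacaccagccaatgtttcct

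Among the 28 members, 1 fell in p80HT B cells, none rose and 27 did not pass. The words rise and fall are kept for genes past the threshold named in the study's methods, a 1.5-fold change and p under 0.01, unadjusted and here from limma. At this threshold 1.22% of all genes rose and 0.968% fell, and 1 of 28 members is 3.57%, a share that rests on a single gene. These are 243 and 193 genes, and with each array centred on its median the split was 183 higher and 342 lower. At a Benjamini-Hochberg adjusted p under 0.05 in limma, no member passed with all 6 arrays, where 0.0552% of all genes did, and none passed it by ordinary analysis of variance. At an unadjusted p under 0.05, 4 members passed (14.3%), against 10.2% of all genes: Irak3, Ly96, Peli1 and Tlr6. The median log2 fold change (p80HT minus WT, as all changes here) was 0.02 over the members and -0.02 over all genes, with 14 members above 0 and 14 below. In 12 members the groups did not overlap, 6 higher and 6 lower in p80HT, which is 21.4% in each direction where 8.86% of all genes were higher and 11.9% lower without overlap. The 6 higher members were Tlr7, Tlr8, Tlr12, Ly96, Ticam2 and Ikbke, and the 6 lower members were Tlr1, Tlr6, Irak2, Irak3, Peli1 and Tollip. Leaving out an array cannot make separated groups overlap, so these 12 had to stay apart without p80HT replicate 3. The counts were still 6 higher and 6 lower, so no member joined them. In that setting 3920 of all 19938 genes were higher and 4090 lower without overlap, so the members no longer stood clear of that background. With 3 mice a group, the smallest p that an exact permutation test can reach for a single gene is 0.10.

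**Figure D1:**
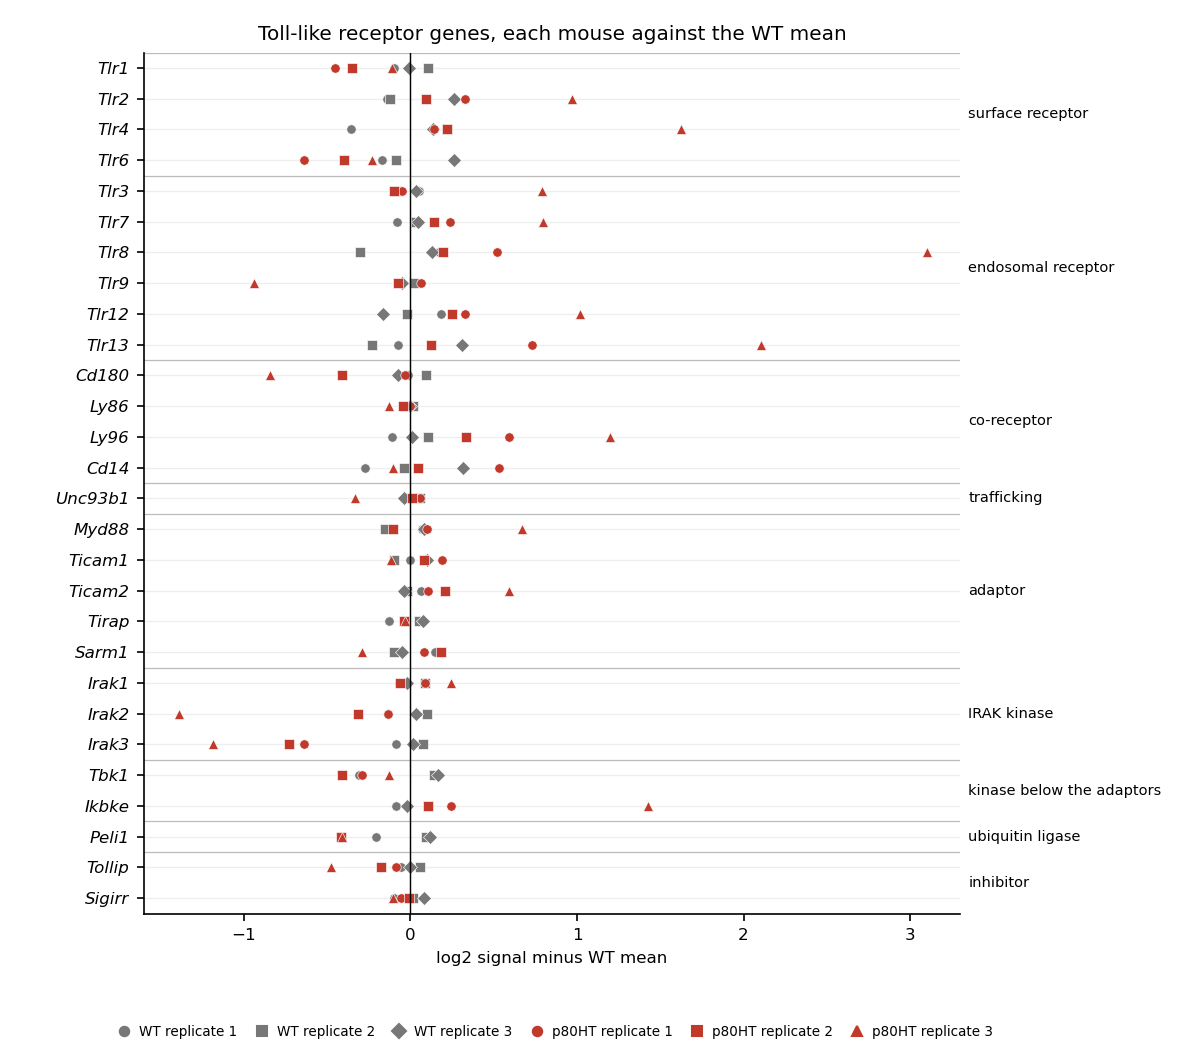
Log2 signal of the 28 measured members in each mouse, as the difference from the mean of the 3 WT mice (horizontal axis), with genes grouped by role (vertical axis), WT in grey and p80HT in red. Irak3 lies below all WT mice in all 3 p80HT mice, while p80HT replicate 3 (triangles) lies far from the other 5 mice for Tlr8, Tlr13, Tlr4, Ikbke and Irak2.

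The IRAK kinases relay the signal below MyD88. Irak3, also called IRAK-M, lacks full kinase activity and is known as a brake on the pathway. Its signal was 10.83, 11.00 and 10.94 in WT and 10.28, 10.19 and 9.73 in p80HT replicates 1, 2 and 3. Every p80HT mouse lay below every WT mouse, and p80HT replicate 3 was the lowest. The log2 fold change was -0.85 ± 0.17 (SE), with a 95% interval from -1.26 to -0.45, so that WT was 1.81-fold higher (adjusted p = 0.182 in limma). Irak3 stands on the study's list of changed genes, which was drawn up from the same arrays, so this call is not independent evidence. Without p80HT replicate 3 the change was -0.68 ± 0.11 (SE) with an adjusted p of 0.0065 in limma, a level at which 2.56% of all genes were higher and 2.11% lower. It was then the member past that level, and no member was higher. Past the 1.5-fold threshold without that array were 2.01% of all genes as higher and 1.45% as lower, and Irak3 was again the member that fell. It passed without any 1 of the 6 arrays, with changes from -0.96 to -0.68.

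Irak2, which sustains the signal after Irak1, was at 10.45, 10.68 and 10.62 in WT and 10.45, 10.27 and 9.19 in p80HT. The lowest WT value and the highest p80HT value nearly touch, and p80HT replicate 3 lies far below the rest. The change was -0.61 ± 0.32 (SE, adjusted p = 0.562 in limma) and -0.23 ± 0.12 without that array, neither past the threshold. Irak1, the kinase that MyD88 complexes recruit early and a member with the κB consensus shown above, was at 9.88 ± 0.08 (SD, n = 3) in WT and 9.97 ± 0.15 in p80HT. Its change of 0.09 has a 95% interval from -0.22 to 0.40, which lies inside 1.5-fold (0.585 on the log2 scale) on either side, and without p80HT replicate 3 the change was 0.013. Of the 3 measured IRAK genes, 1 fell and 2 did not pass.

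Peli1, a ubiquitin ligase of the Pellino family that acts on IRAK complexes, was at 11.24, 11.54 and 11.56 in WT and at 11.03, 11.03 and 11.03 in p80HT. All p80HT mice lay below all WT mice, with an SD of 0.0024 in p80HT against 0.18 in WT. The change was -0.42 ± 0.13 (SE), a 1.33-fold higher level in WT (adjusted p = 0.380 in limma), under the 1.5-fold limit. The value without p80HT replicate 3 was nearly the same, -0.42 ± 0.12. Peli1 thus differs from Irak2 in that the array that stands apart lies with the other p80HT mice.

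**Figure D2:**
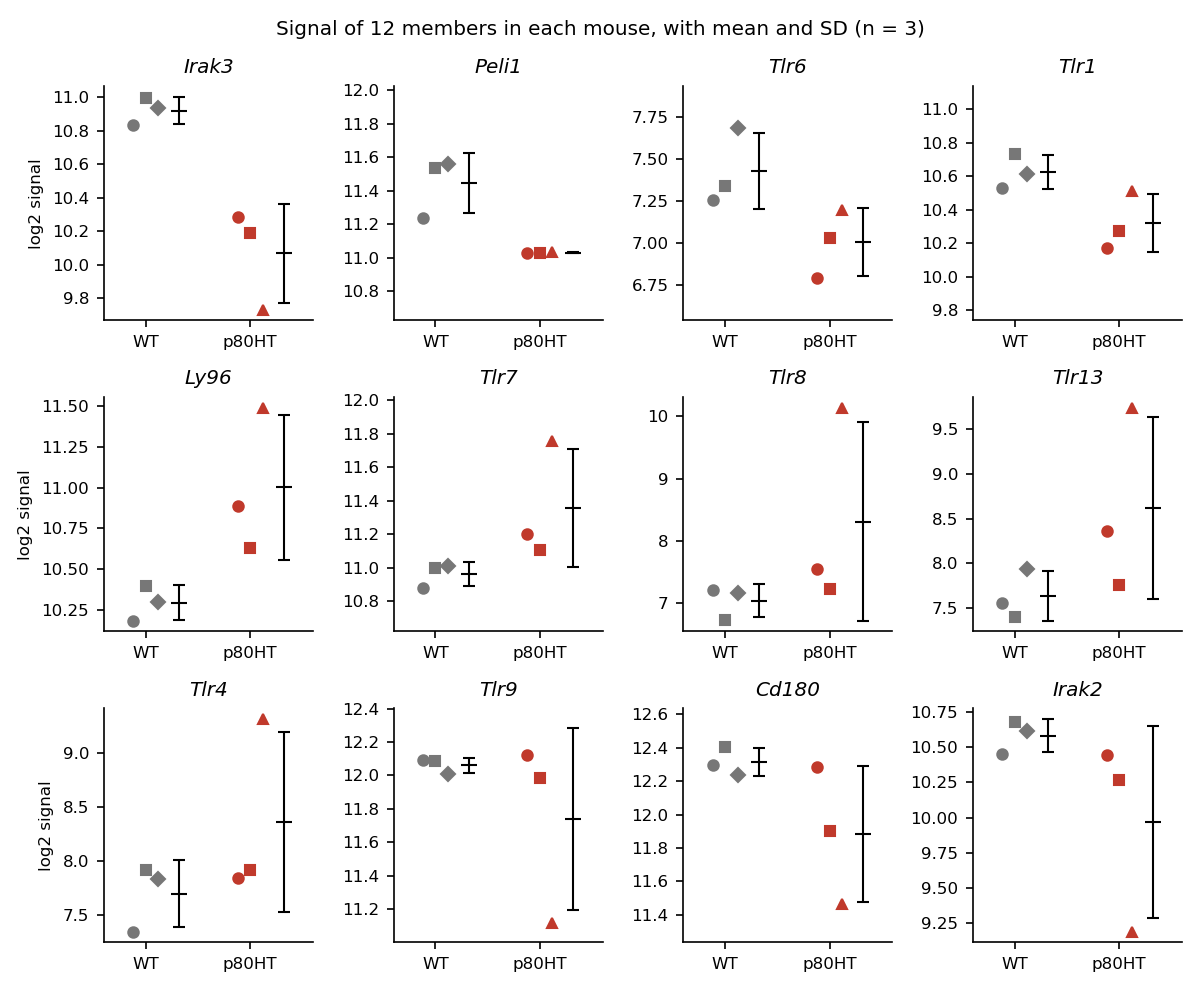
Log2 signal (vertical axes, each panel with its own scale) of 12 members in 3 WT mice (grey) and 3 p80HT mice (red), 1 point per mouse (circle, square, and diamond or triangle for replicates 1, 2 and 3), with group mean and SD in black. Irak3, Peli1, Tlr6 and Tlr1 are lower in all 3 p80HT mice, while for Tlr8, Tlr13, Tlr4, Tlr9 and Irak2 p80HT replicate 3 lies far from the other 2 p80HT mice.

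At the cell surface, Tlr1 and Tlr6, which each pair with Tlr2 to bind bacterial lipopeptides, were lower in all p80HT mice without passing the threshold. Tlr6 was at 7.26, 7.34 and 7.69 in WT and at 6.79, 7.03 and 7.20 in p80HT. The groups lie close but apart, at levels below the median of all probesets on each array (7.68 to 7.81). The Tlr6 change was -0.42 ± 0.17 (SE, adjusted p = 0.468 in limma), and -0.52 ± 0.15 without p80HT replicate 3. Tlr1 was at 10.53, 10.73 and 10.62 in WT and at 10.17, 10.28 and 10.51 in p80HT. Here p80HT replicate 3 lay just under the lowest WT mouse and the other p80HT mice further below. The Tlr1 change was -0.31 ± 0.14 (SE, adjusted p = 0.515), and -0.40 ± 0.11 without that array (adjusted p = 0.0730 in limma).

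Tlr2, the shared partner of both, and Tlr4, the receptor for bacterial lipopolysaccharide, went the other way on p80HT replicate 3. Tlr2 was at 8.40, 8.42 and 8.80 in WT and at 8.87, 8.63 and 9.51 in p80HT. Tlr4 was at 7.34, 7.92 and 7.83 in WT and at 7.84, 7.92 and 9.32 in p80HT. The groups overlap in both genes, and the high value is that of p80HT replicate 3. The change of Tlr2 was 0.46 ± 0.25 (SE) and 0.21 ± 0.15 without that array. That of Tlr4 was 0.66 ± 0.40 (SE) with all arrays and 0.18 ± 0.16 without that array. None of the 4 surface receptors measured passed the threshold.

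In endosomes, Tlr7, the receptor for single-stranded RNA, was at 10.88, 11.00 and 11.01 in WT and at 11.20, 11.11 and 11.76 in p80HT. All p80HT mice lay above all WT mice, with p80HT replicate 3 the highest. The change was 0.39 ± 0.19 (SE, adjusted p = 0.537 in limma) and 0.19 ± 0.11 without that array. Tlr9, the receptor for unmethylated CpG DNA, was at 12.09, 12.08 and 12.01 in WT and at 12.12, 11.98 and 11.12 in p80HT. The other 5 mice lay between 11.98 and 12.12, and p80HT replicate 3 lay far below the lowest of them. With all arrays the change of Tlr9 was -0.32 ± 0.26 (SE). Without p80HT replicate 3 it was -0.0068 ± 0.11, with a 95% interval from -0.24 to 0.23. Unc93b1, which carries the endosomal receptors from the endoplasmic reticulum, was at 12.13 ± 0.05 (SD, n = 3) in WT and 12.04 ± 0.21 in p80HT, a change of -0.09 with a 95% interval from -0.43 to 0.25, and of 0.033 without p80HT replicate 3.

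Tlr8, a receptor for RNA fragments, had the largest change of any member with all arrays, 1.27 ± 0.70 (SE, adjusted p = 0.586 in limma). It was at 7.21, 6.74 and 7.17 in WT and at 7.56, 7.24 and 10.14 in p80HT. Except on p80HT replicate 3, these levels lie below the median of all probesets on each array (7.68 to 7.81). The groups do not overlap, but p80HT replicate 3 lies 2.58 above every other mouse, and without it the change was 0.36 ± 0.16. Tlr13, a mouse receptor for bacterial ribosomal RNA, was at 7.56, 7.41 and 7.94 in WT and at 8.37, 7.76 and 9.74 in p80HT, with overlap. Its change of 0.99 ± 0.47 (SE) became 0.43 ± 0.20 without that array. Tlr12, a mouse receptor for a profilin of protozoan parasites, was at 7.59, 7.39 and 7.25 in WT and at 7.74, 7.66 and 8.43 in p80HT, without overlap. It too lay below the median of each array except on p80HT replicate 3. The Tlr12 change was 0.53 ± 0.23 (SE), and 0.29 ± 0.12 without p80HT replicate 3. Tlr3, the receptor for double-stranded RNA, was at 7.75 ± 0.07 (SD, n = 3) in WT and, in p80HT, at 7.70, 7.65 and 8.54. Its change was 0.21 ± 0.24 (SE) with all arrays and -0.08 ± 0.10 without p80HT replicate 3. None of the 6 endosomal receptors measured passed the threshold.

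Among the co-receptors, Ly96, which encodes MD-2, the lipid-binding partner of Tlr4, was at 10.18, 10.40 and 10.30 in WT and at 10.89, 10.63 and 11.49 in p80HT. All p80HT mice lay above all WT mice. The change was 0.71 ± 0.22 (SE), 1.63-fold (adjusted p = 0.379 in limma), which passed the fold but not the p of the threshold. Without p80HT replicate 3 it was 0.46 ± 0.12 (adjusted p = 0.0626 in limma), which passed the p but not the fold. Cd180, a B cell homologue of Tlr4 that lacks the signalling domain, was at 12.30, 12.40 and 12.24 in WT and at 12.28, 11.90 and 11.47 in p80HT. The groups overlap through p80HT replicate 1, and the change was -0.43 ± 0.21 (SE) and -0.22 ± 0.13 without p80HT replicate 3. Its partner Ly86, or MD-1, moved little, from 13.35 ± 0.02 (SD, n = 3) in WT to 13.29 ± 0.06 in p80HT, with a 95% interval of the change from -0.33 to 0.21 and a change of -0.024 without p80HT replicate 3. Cd14, which hands lipopolysaccharide to MD-2, was at 7.39 to 7.97 in WT and 7.56 to 8.19 in p80HT, and p80HT replicate 3 was its lowest p80HT mouse. Its change was 0.16 with all arrays and 0.29 without that array.

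Among the adaptors, the 95% intervals of the change with all arrays lay inside 1.5-fold on either side for Ticam1, Tirap and Sarm1. Those of Myd88 (from -0.28 to 0.72) and Ticam2 (from -0.07 to 0.67) reached beyond 1.5-fold on the higher side. A higher level of that size in p80HT is therefore not excluded for Myd88 and Ticam2 with all arrays. The groups overlapped in Myd88, the shared adaptor, with 9.91 ± 0.13 (SD, n = 3) in WT and 10.13 ± 0.40 in p80HT, and its change of 0.22 was -0.0034 (95% interval from -0.27 to 0.27) without p80HT replicate 3. Ticam1 (TRIF) changed by 0.05 and Tirap, which brings MyD88 to Tlr2 and Tlr4, by -0.04, with 95% intervals from -0.27 to 0.37 and from -0.32 to 0.24. Without p80HT replicate 3 these changes were 0.13 and -0.040. Ticam2, or TRAM, which links Tlr4 to TRIF, was at 8.48, 8.40 and 8.38 in WT and at 8.53, 8.63 and 9.02 in p80HT. The groups were apart, with a change of 0.30 ± 0.16 (SE, adjusted p = 0.565 in limma) and of 0.16 ± 0.10 without p80HT replicate 3. Sarm1, an NAD-cleaving adaptor that dampens TRIF signals, was at 6.69 to 7.17 on all arrays, below the median of all probesets, and its change was -0.0090 with all arrays and 0.13 without p80HT replicate 3. None of the 5 adaptors passed the threshold.

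Of the kinases below TRIF, Tbk1 was at 9.31 ± 0.27 (SD, n = 3) in WT and 9.03 ± 0.14 in p80HT, with overlap and a change of -0.28 ± 0.17 (SE), or -0.35 ± 0.15 without p80HT replicate 3. Its relative Ikbke was at 8.77, 8.96 and 8.84 in WT and at 9.10, 8.96 and 10.28 in p80HT. The groups nearly touch, and p80HT replicate 3 lies 1.18 above the next mouse. The change of Ikbke was 0.59 ± 0.33 (SE, adjusted p = 0.593) and 0.17 ± 0.11 without that array. The inhibitors moved little. Tollip, an inhibitor of IRAK1, was at 10.06 ± 0.06 (SD, n = 3) in WT and 9.81 ± 0.21 in p80HT, just apart, a change of -0.25 with all arrays and -0.13 without p80HT replicate 3. Sigirr, a receptor that restrains IL-1 and Toll-like receptor signals, changed by -0.06 (95% interval from -0.34 to 0.22) and by -0.035 without that array.

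**Figure D3:**
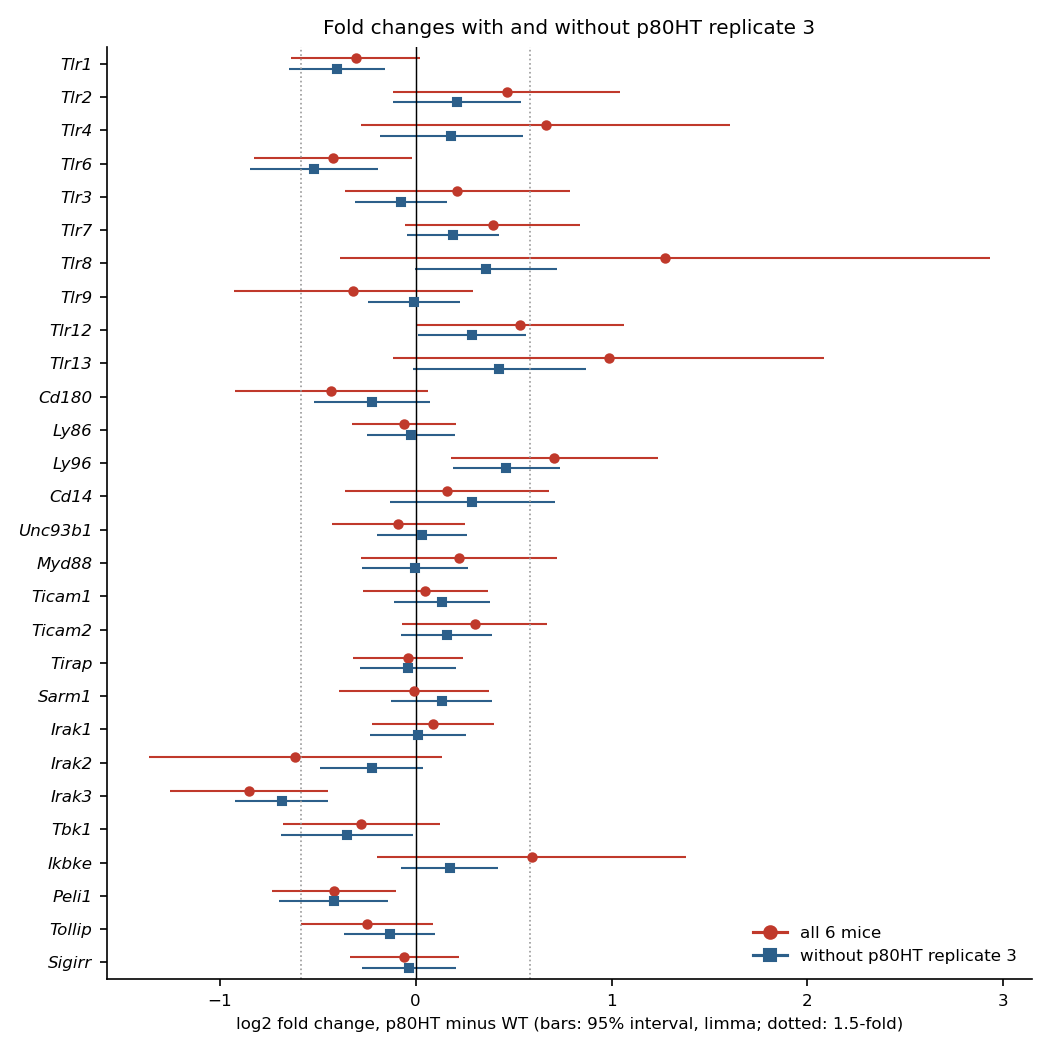
Log2 fold change (horizontal axis, p80HT minus WT, with 95% limma intervals as bars) of the 28 members with all 6 mice (red circles) and without p80HT replicate 3 (blue squares), with dotted lines at 1.5-fold. Irak3 lies beyond the line on the lower side under both, and Tlr8 moves from 1.27 to 0.36.

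Members that stood out on p80HT replicate 3 can be counted without a test. On that array 8 of the 28 were at least 1.5-fold above the highest of the other 5 mice (28.6%, against 9.61% of all genes): Tlr2, Tlr3, Tlr4, Tlr8, Tlr12, Tlr13, Ly96 and Ikbke. Just inside this limit lay Ly96, at 0.60 above the next mouse, and just outside it Myd88 at 0.57 and Tlr7 at 0.55. Below the lowest of the other mice by 1.5-fold lay 2 members (7.14%, against 4.81% of all genes), Tlr9 by -0.86 and Irak2 by -1.08. Markers of other cells moved on the same array. The 12 salivary and lacrimal gland markers had a summed signal (log2) of 10.49 to 10.74 in WT, 10.68 and 10.91 in the other p80HT mice and 16.02 on it. The 9 fibroblast markers had sums of 10.39 to 10.78, of 10.66 and 10.79, and of 13.68. Of these 9, 8 were at least 1.5-fold above the highest of the other mice on it (88.9%). The macrophage and monocyte list, 17 genes, had a summed signal (log2) of 13.28 to 13.63 in WT, 13.69 and 13.95 in the other p80HT mice and 15.40 on p80HT replicate 3. Of these 17, 2 rose (Adgre1 and Vsig4) and none fell with all arrays, with a median of 0.86 and, without that array, 0.26. Their most intense members, Lyz2 (lysozyme) and Cd68, were at 13.64 and 12.51 on it, against at most 12.59 and 11.28 elsewhere. Values of this kind have no true 0, so the absence of a marker cannot be read from them. The 13 T cell markers had a summed signal of 11.95 to 12.32 in WT, 12.92 and 13.14 in the other p80HT mice and 14.74 on that array, and 3 of them (Cd3e, Cd3g and Cd5) rose, with a median over the list of 1.30. Without that array 11 of the 13 rose (2.01% of all genes did), with a median of 0.73. At an adjusted p under 0.05 in limma 9 of them were higher, as were 2.56% of all genes. The 12 neutrophil markers ran the other way on it, with a summed signal of 11.84 against 12.62 to 14.79 elsewhere. The 9 plasmacytoid dendritic cell markers, of which none passed the threshold, had a summed signal of 14.18 to 14.28 in WT, 14.16 and 14.19 in the other p80HT mice and 13.67 on that array. This sum is carried by Ly6d, Spib and Tcf4, with WT means of 13.01, 12.50 and 11.36, while the highest of the rest, Siglech, was at 9.16. On p80HT replicate 3, Ly6d was at 11.79, against 12.64 and 12.73 in the other p80HT mice. Siglech was at 8.68 on it, against 8.67 and 8.82. The sum thus says little about the less intense markers. Of the 9, 5 were lower in all p80HT mice without overlap (55.6%, against 11.9% of all genes): Siglech, Ccr9, Cox6a2, Pacsin1 and Ly6d. The list was not uniform, with 7 changes below 0 and 2 above, Bst2 (0.48) and Tcf4 (0.11). Without p80HT replicate 3, 6 were lower and 2 higher (Tcf4 and Spib) without overlap, where 4090 and 3920 of all 19938 genes were. The median over the 9 was -0.39, and -0.33 without that array, when Cd209d (-1.22) fell. The part of these cells in the members' values was not tested.

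**Figure D4:**
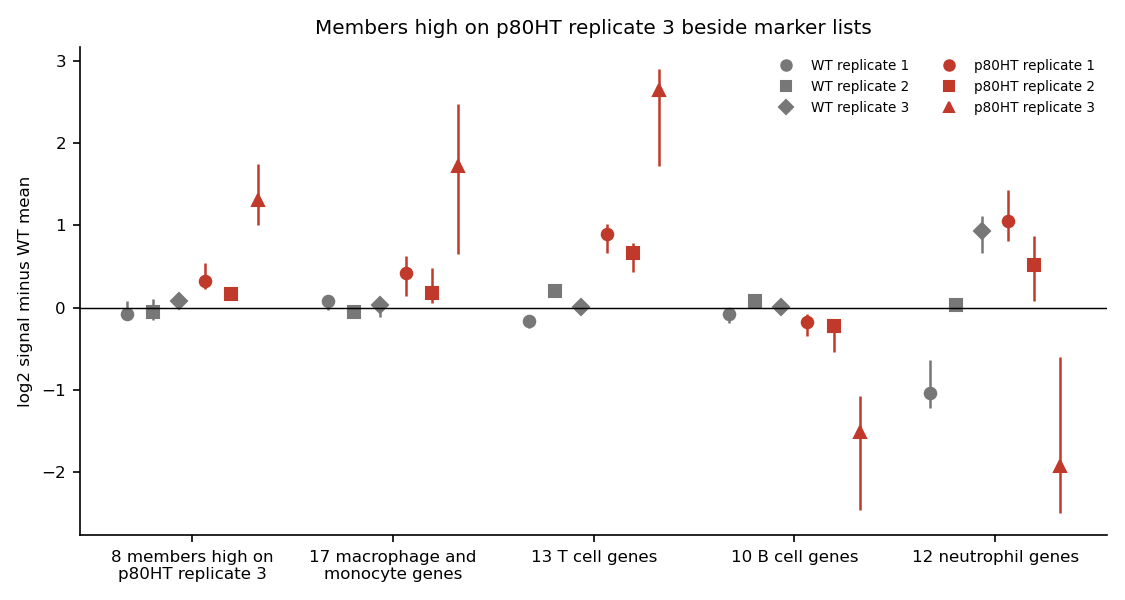
Median difference from the WT mean (vertical axis, log2 signal) for each mouse over the 8 members that were chosen for being high on p80HT replicate 3 and over 4 marker lists, with bars for the middle quartiles over genes. On p80HT replicate 3 (triangle) the medians are 1.31 for these members, 1.72 for macrophage genes, 2.64 for T cell genes, -1.52 for B cell genes and -1.93 for neutrophil genes. The gland and fibroblast markers, also high on that array, are not drawn.

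Other genes of the pathway were read from a list of 40 chaperones, downstream kinases, interferon regulatory factors and negative regulators, of which 35 were measured. Of these, 2 rose, 1 fell and 32 did not pass (limma), with a median of -0.12 against -0.02 over all genes, and of -0.033 without p80HT replicate 3, where all genes had 0.036. Otulin, which removes linear ubiquitin chains from signalling complexes, was at 10.53, 10.84 and 10.67 in WT and at 9.93, 10.01 and 10.01 in p80HT. The groups are well apart, p80HT replicate 3 lies with the other p80HT mice, and the change was -0.70 ± 0.13 (SE, adjusted p = 0.161 in limma) and -0.71 ± 0.12 without that array. Nlrc5, a regulator known for driving MHC class I genes and also described as a brake on NF-κB, rose by 0.99 ± 0.14 (SE, adjusted p = 0.0982 in limma), from 10.63 to 10.92 in WT to 11.67 to 11.97 in p80HT, and by 1.05 ± 0.13 without p80HT replicate 3. It was higher in p80HT at all 19 of its probesets, and like Irak3 it stands on the study's list from the same arrays. Lbp, the plasma protein that carries lipopolysaccharide to Cd14, was at 7.84, 7.62 and 8.28 in WT and at 8.81, 8.54 and 8.90 in p80HT (0.84 ± 0.20, SE, and 0.77 ± 0.18 without p80HT replicate 3). Lbp no longer passed when WT replicate 1 (0.80), WT replicate 2 (0.69) or p80HT replicate 1 (0.81) was left out, nor by ordinary analysis of variance, the kind of test in the study's methods, by which 2 pathway genes passed. Of the 35, 10 were lower without overlap (28.6%, against 11.9% of all genes) and 3 higher (8.57%, against 8.86%). Without p80HT replicate 3, 12 were lower and 6 higher without overlap, where 4090 and 3920 of all 19938 genes were. Among the 10 lower with all arrays, the kinase gene Btk (-0.58) and Map3k8, the kinase Tpl2 (-0.70), did not pass (adjusted p = 0.342 and 0.380 in limma). Neither is named by the rule for this list, and both were chosen after their values were seen.

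Of 30 genes known to be induced through Toll-like receptors, 28 were measured. With all arrays 1 fell, none rose and 27 did not pass, with a median of 0.02. Plaur, the urokinase receptor, fell from 12.04, 12.10 and 11.84 in WT to 10.87, 10.36 and 8.79 in p80HT (-1.99 ± 0.48, SE, adjusted p = 0.269 in limma), and missed the threshold when any 1 WT array was left out, replicate 1 (-1.96), replicate 2 (-1.93) or replicate 3 (-2.06). Without p80HT replicate 3, 4 of the 28 rose and 2 fell (limma), where 2.01% of all genes rose and 1.45% fell. These genes are named after their values were seen. The chemokine gene Cxcl10 (1.21), Ier3 (0.72), Il12a (0.66) and Il6 (0.62) rose, and Plaur (-1.38) and Zc3h12a, the RNase regnase-1 (-0.65), fell. With all arrays the changes were 2.20 for Cxcl10, 0.64 for Ier3, -0.16 for Il12a, 0.37 for Il6 and -1.09 for Zc3h12a, none past the threshold. Il12a thus turned sign, with p80HT replicate 3 at 7.96 and the other mice at 9.64 to 10.47. Il6 was at 4.70 to 5.68 on all arrays, below the median of every array. The cytokine gene Tnf (0.0017), the inhibitor gene Nfkbia (0.24) and Icam1 (0.019) did not pass without that array. Cxcl10 was at 8.20 to 9.05 in WT, 9.91 and 9.68 in p80HT replicates 1 and 2 and 12.76 in p80HT replicate 3.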

How the data were processed

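The deposited values are log2 probeset signals, 1 array per mouse with no pooling. The submitters' processing notes name RMA and Partek, and the authors normalized in Partek. RMA in its standard form corrects background and quantile-normalizes probes over arrays, which evens out total signal. Versions and settings are not given in the sources used here. Arrays carry no read depth. Precision is limited by the number of mice and by the array that stands apart. Of 28853 probesets, 21789 carry 1 gene symbol in the platform table, 1621 several and 5443 none. Each gene was read at its single-symbol probeset with the highest mean over the 6 arrays. Groups follow the sample titles. Tests were fitted over all 19938 genes in R 4.3.3 with limma 3.58.1, 2-sided and with no covariate. p-values measure the spread between these mice.

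The members, the pathway and marker lists and the rule for named genes (all members, and pathway or target genes past the threshold) were chosen with earlier results of these data known. Alternatives were leaving out each array, the replicate number as a block, ordinary analysis of variance, an intensity trend, array weights, quantile normalization, median centring, filters on low signal, the mean of probesets and other thresholds. The counts without p80HT replicate 3 at an adjusted p and without overlap were added after the data were seen. On simulated data with 19938 genes, the threshold recovered 82 of 100 genes changed 2-fold and 94 of 100 changed 4-fold, with 106 false calls. Whether these counts hold for the real arrays, where p80HT replicate 3 stands apart, was not tested. Lists for age-associated B cells, conventional dendritic cells, plasma cells, NK cells and fibroblasts were also read, with median log2 changes of 0.88, 0.34, 0.16, 0.28 and 0.80 over all arrays and of 0.69, 0.29, 0.060, 0.22 and 0.17 without p80HT replicate 3. Tables were made with Python 3.11.15 and pandas 2.3.3, figures with matplotlib 3.10.9.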

Additional observations from a re-analysis of the deposited data

How the results depend on the processing

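Irak3 kept its direction and passed the threshold under every alternative run except the adjusted p over all 6 arrays. With 1 array left out, the count was 1 to 2 for members, 2 to 3 for other pathway genes, 0 to 6 for target genes and 206 to 691 for all genes, the extremes being WT replicate 2 and p80HT replicate 3 for all genes. Members past the threshold numbered 2 with the replicate block (Tlr13 added, 0.99), 2 with array weights (Tlr6 added, -0.78), 2 with quantile normalization (Ly96 added, 0.78), 2 at 1.5-fold with an unadjusted p under 0.05 and 0 at an adjusted p under 0.05 in limma, where 4 had an unadjusted p under 0.05. Ly96 also passed without p80HT replicate 2 (0.89). Without p80HT replicate 3, 1 member passed an adjusted p. Other pathway genes numbered 0 at an adjusted p (7 at an unadjusted p under 0.05). Target genes numbered 0 without WT replicate 1 or 2, 2 without p80HT replicate 1 and 6 without p80HT replicate 3. They numbered 3 with the block, 6 with array weights, 0 with analysis of variance, quantile normalization or an adjusted p (6 at an unadjusted p under 0.05), and 5 at 1.5-fold with an unadjusted p under 0.05. All genes numbered 196 with analysis of variance, 900 with array weights, 11 at an adjusted p and 855 at 1.5-fold with an unadjusted p under 0.05. Median centring changed the split of all genes to 183 higher and 342 lower. The cause of these moves was not tested.

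Changes that turned sign, from main values of -0.32 (Tlr9) to 0.22 (Myd88), were those of Tlr3 without p80HT replicate 3 and with array weights (-0.071), Tlr9 with array weights (0.063), Cd14 and Ticam1 without p80HT replicate 1, Myd88 without p80HT replicate 3, Ticam1 (-0.043) and Irak1 (-0.0022) with median centring, Unc93b1 without p80HT replicate 3 and with array weights (0.067), and Sarm1 without WT replicate 1, without p80HT replicate 3 and with array weights (0.14). With 1 array left out, the change ran from -0.075 to 0.37 for Tlr3, -0.028 to 0.32 for Cd14, -0.0034 to 0.38 for Myd88, -0.020 to 0.13 for Ticam1, -0.16 to 0.033 for Unc93b1 and -0.10 to 0.13 for Sarm1. None of these passed the threshold. The block changed no other call of a member. The labels give both groups numbers 1 to 3 but no litter. Deviations of same-numbered mice from their group means correlated at 0.07, -0.24 and 0.07. With 3 mice a group and 1 array that stands apart, these values cannot tell whether the numbers pair the mice. No member has a second single-symbol probeset, so that alternative gave no value.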
